A study of Mus musculus with 11 samples.

Results

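The genes described here are those of cholesterol synthesis and sterol control, 31 of the 36666 genes in the count table, chosen by symbol from a list of pathway members. Msmo1 is listed in the table under its older name, Sc4mol. Cerebral poly(A)+ RNA of 11 male C57/Bl6 mice, each 1 year old, was sequenced. Of these, 7 were Polg mutators (D257A/D257A), which carry on both alleles a change in the proofreading domain of the mitochondrial DNA polymerase, and 4 were controls. Of the controls, 3 were WT/WT (mice 205, 239 and 246) and 1, mouse 237, was WT/D257A, so that it carried the same change on a single allele. The change is in the germ line, so no cell type is singled out. The sample was bulk tissue of a cerebral hemisphere, in which fewer cells of a type and less RNA per cell cannot be told apart.

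The brain makes nearly all of its own cholesterol, since lipoproteins of the blood hardly cross the blood-brain barrier, and much of it lies in myelin. Acetyl-CoA is turned into mevalonate and isoprenoid units, these are joined into squalene, and squalene is closed into lanosterol and trimmed to cholesterol. When sterols in the endoplasmic reticulum run low, Scap carries the SREBP transcription factors to the Golgi, where they are cut free and switch on these enzymes, while Insig proteins hold Scap back when sterols are plentiful. Surplus cholesterol leaves cells through ABC transporters, which liver X receptors induce, or is hydroxylated by Cyp46a1 in neurons so that it can leave the brain.

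Gene counts summed to between 28249345 and 121182250 in the 4 controls and to between 37821243 and 91219204 in the 7 mutators. There were 2 libraries that stood apart. Mutator mouse 248 had 91219204 gene counts, more than the 30449029 aligned reads that are listed for it, or 3.00 counts per aligned read. The other mice had between 0.744 and 0.775. Of the reads of mouse 248, 76.3% were listed as aligned, against 88.3% to 94.1% in the other mice. Control mouse 237 differed from the other controls in genotype, and it was the lowest or the highest of the 11 mice in 14 of 30 members, 46.7%, against 31.1% of all genes tested. Mutator mouse 248 was the lowest of all in 9 members and the highest in 1, where it was the lowest in 12.9% of all genes. Control mouse 246, the smallest library, was the highest of all in 9 members and the lowest in 0, where it was the highest in 12.3% of all genes. Levels are given as CPM, counts scaled to library size with edgeR's TMM factors. Log2 fold changes compare mutators with controls and carry their standard error (SE).

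The comparison asks whether the RNA of these genes differed between mutators and controls. None of the 30 members that passed the filter on low counts was called by edgeR's quasi-likelihood test at a Benjamini-Hochberg adjusted p under 0.05, where 1.24% of the 17983 genes tested were. DESeq2 called 2, Dhcr7 and Srebf2, both lower in the mutators, where it called 3.54% of its 17377 genes. At an unadjusted p under 0.05, edgeR gave 10 of 30 members, 33.3%, against 15.8% of all genes. Of these, 7 were lower (Mvd, Fdps, Dhcr7, Srebf2, Scap, Nr1h2 and Cyp46a1), where 8.58% of all genes were, and 3 were higher (Ggps1, Lbr and Insig2), where 7.18% were. The groups overlapped in each of the 30 members, while 2.62% of all genes had groups that did not overlap. The median log2 fold change was -0.08 over the members and 0.0014 over all genes tested. Of the 30 members, 22 (73.3%) lay below 0, against 49.6% of all genes. Per mouse, the members' median log2 deviation from the control mean lay between -0.027 and 0.055 in controls. It was -0.019 in mutator mouse 207, -0.027 in mouse 217 and between -0.147 and -0.047 in the other mutators. Summed CPM overlapped between the groups in each role. For the squalene steps it was 500.6 to 577.2 in controls and 490.7 to 551.6 in mutators. For sterol sensing it was 543.8 to 569.7 and 487 to 568.8.

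**Figure D1:**
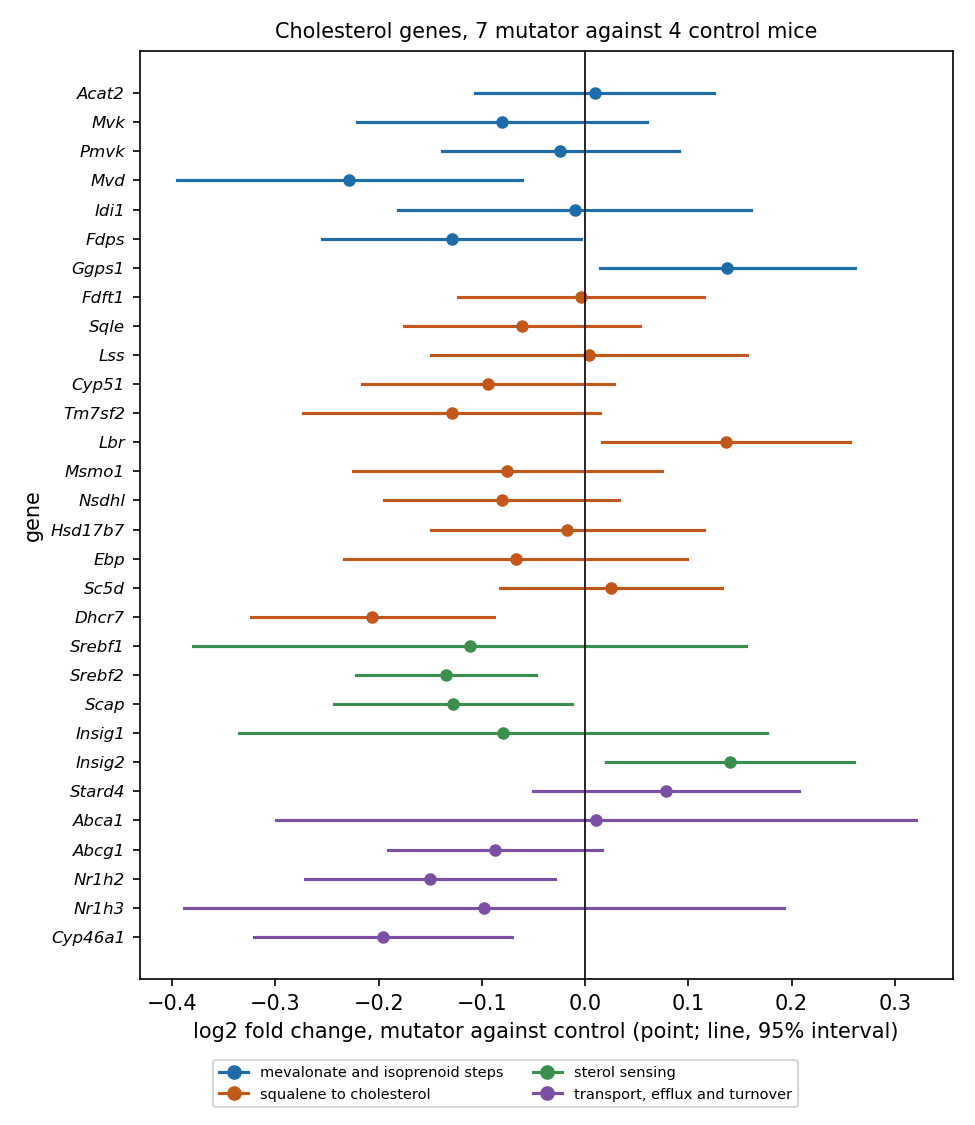
Log2 fold change of each member (horizontal axis, mutator against control) with its 95% interval from edgeR, by gene (vertical axis) and coloured by role. The estimates run from -0.23 for Mvd to 0.14 for Insig2, and 10 of 30 intervals leave out 0.

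The counts of members at an unadjusted p under 0.05 moved with single libraries. At that threshold there were 6 members (20.0%) without control mouse 246, where 11.9% of all genes tested were. Without mutator mouse 211 there were also 6 (20.0%), where 13.9% of all genes were. Without mouse 237, 8 members (26.7%) had an unadjusted p under 0.05, against 9.79% of all genes. Of the 8, 5 were among the 10 above and 0 were higher in the mutators. Ggps1, Lbr and Insig2 were no longer among them, nor were Scap and Nr1h2, while Sqle, Cyp51 and Msmo1 had joined, all 3 lower in the mutators. Without mouse 248 there were 8 (26.7%, against 13.9% of all genes), all of them among the 10, with Fdps and Scap missing. With both mice left out, 6 (20.0%) lay below that threshold, against 8.89% of all genes, 3 of them among the 10 (Mvd, Dhcr7 and Srebf2). The median over members, -0.08 with all mice, was -0.05 without control mouse 246, -0.05 without control mouse 205, -0.07 without mouse 237, -0.07 without mouse 248 and -0.06 without both 237 and 248.

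The first steps lead to mevalonate and from there to isoprenoids. Hmgcs1, which encodes the enzyme that joins acetyl-CoA and acetoacetyl-CoA, was listed at 0 counts in all 11 mice. Its 300-base promoter window, read from RefSeq, was found in the NCBIM37 (mm9) genome only on 2 sequences that are not placed on a chromosome, and the gene is absent from the annotation used here for positions. Whether this bears on the 0 was not tested, and no level of its RNA is given. Of the other 7 genes of these steps, 3 (42.9%) had an unadjusted p under 0.05, against 15.8% of all genes tested.

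Mvd, the decarboxylase that makes isopentenyl diphosphate, had 15.4, 17.1, 17.5 and 18.2 CPM in control mice 205, 237, 239 and 246, and a lowest, median and highest value of 12.98, 13.6 and 17.6 CPM in the mutators. In 5 of 7 mutators it lay below the lowest control, while mutator mice 207 and 217, at 17.6 and 15.6 CPM, lay among the controls. Its log2 fold change was -0.23 (SE 0.08, adjusted p = 0.161 by edgeR). Without mouse 207 it was -0.28 and was called (adjusted p = 0.0463 by edgeR), while over its 18 alternatives the adjusted p ranged up to 0.528.

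Fdps, farnesyl diphosphate synthase, had 50.3, 49.2, 46.3 and 57.3 CPM in the same controls and 42.5, 46.4 and 50.1 in the lowest, median and highest mutator. The difference leaned on control mouse 246, the highest of all 11, and the groups overlapped widely. The log2 fold change was -0.13 (SE 0.06, adjusted p = 0.304 by edgeR) and -0.07 without mouse 246. Ggps1, which makes geranylgeranyl diphosphate for protein prenylation, had 40.1, 33.0, 39.6 and 36.4 CPM in the controls and 38.7, 40.0 and 44.6 in the mutators. Mouse 237 was the lowest of all, and only 3 mutators lay above the highest control. Its log2 fold change was 0.14 (SE 0.06, adjusted p = 0.259 by edgeR) and 0.09 without mouse 237.

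Acat2 (acetoacetyl-CoA synthesis), Mvk and Pmvk (the kinases that act on mevalonate) and Idi1 (the isomerase of isopentenyl diphosphate) had log2 fold changes between -0.08 and 0.01, each with a 95% interval that holds 0, and between -0.12 and 0.04 with single mice left out. The widest of these intervals was that of Idi1, from -0.18 to 0.16. Near-identical copies of some of these genes lie elsewhere in the genome, and their effect on the counts was not tested. A copy of 86.5% of the Idi1 transcript, 99.9% identical, lies on chromosome 2 from 53553399 to 53555892 (mm9), and Fdps has 1 of 98.9% identity on chromosome 10 from 93241356 to 93242512. Copies of at least 50% of the transcript and at most 5% divergence were found for 6 of 30 members, which also include Acat2, Ggps1, Fdft1 and Insig1.

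The steps from squalene to cholesterol comprise 12 genes, of which 2 (16.7%) had an unadjusted p under 0.05, against 15.8% of all genes tested. Dhcr7, the reductase that turns 7-dehydrocholesterol into cholesterol, lies on chromosome 7 from 151009050 to 151034315 (mm9). It had 33.3, 32.6, 31.7 and 35.1 CPM in the controls and 26.3, 29.3 and 31.7 in the lowest, median and highest mutator. In 6 of 7 mutators it lay below the lowest control, and mouse 249 overlapped with the controls by a small margin. The log2 fold change was -0.21 (SE 0.06), with an adjusted p of 0.0733 by edgeR and 0.0259 by DESeq2. Without mouse 249, edgeR called it (adjusted p = 0.043), and over the 18 alternatives the adjusted p ranged from 0.0259 to 0.296.

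Lbr, a sterol reductase that is also the lamin B receptor of the nuclear envelope, had 15.3, 14.6, 14.9 and 15.8 CPM in the controls and 15.7, 16.9 and 17.2 in the mutators. In 6 of 7 mutators it lay above the highest control. Its log2 fold change was 0.14 (SE 0.06, adjusted p = 0.248 by edgeR). Tm7sf2, which encodes a reductase of the same step, had a log2 fold change of -0.13 (95% interval -0.27 to 0.01) and of -0.08 without mouse 246, and 15.3% of its exon bases are shared with another gene on the same strand.

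Sqle, squalene epoxidase and a rate-limiting enzyme of the later steps, had 71.0, 59.4, 66.6 and 70.7 CPM in the controls and 58.1, 65.5 and 67.5 in the mutators. Cyp51, the lanosterol demethylase, had 76.1, 61.8, 71.7 and 74.0 CPM in the controls and 62.0, 65.3 and 74.2 in the mutators. In both, mouse 237 was the lowest control and lay near the lowest mutator. The log2 fold change was -0.06 for Sqle and -0.09 for Cyp51, and -0.11 and -0.15 without mouse 237. Without control mouse 205 it was -0.03 and -0.06, and for Sqle it was also -0.03 without control mouse 246 and -0.04 without mutator mouse 211.

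The other 7 genes of these steps had log2 fold changes between -0.08 and 0.03, and between -0.14 and 0.07 with single mice left out. They are Fdft1 (squalene synthase), Lss (lanosterol synthase), Msmo1, Nsdhl and Hsd17b7 (removal of methyl groups), Ebp (shift of a double bond) and Sc5d (insertion of a double bond). Fdft1 shares 26.9% of its exon bases with Ctsb on the opposite strand, and since the libraries do not keep the strand, reads of the pair cannot be told apart there. Mouse 237 was the lowest control in 13 of 30 members, among them Idi1, Sqle, Cyp51, Msmo1 and Sc5d, and the highest in 8, among them Srebf1, Abca1 and Cyp46a1.

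Of the 5 genes of sterol sensing, 3 (60%) had an unadjusted p under 0.05, against 15.8% of all genes tested. Srebf2, the SREBP that mainly drives the cholesterol enzymes, lies on chromosome 15 from 81977696 to 82035806 (mm9). It had 243.1, 250.2, 254.0 and 259.6 CPM in the controls and 218.1, 228.6 and 243.2 in the mutators. In 6 of 7 mutators it lay below the lowest control, and mouse 249 lay level with it. The log2 fold change was -0.13 (SE 0.04), with an adjusted p of 0.112 by edgeR and 0.0445 by DESeq2, the lowest of its 18 alternatives, which ranged up to 0.367.

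Scap, the escort of the SREBPs, had 78.3, 93.3, 85.1 and 87.5 CPM in the controls and 70.6, 78.8 and 85.8 in the mutators, of which mouse 248 was the lowest. Its log2 fold change was -0.13 (SE 0.06, adjusted p = 0.259 by edgeR), and 18.9% of its exon bases are shared with a gene on the opposite strand. Insig2, a protein that keeps Scap in the endoplasmic reticulum, had 49.0, 44.0, 47.0 and 45.5 CPM in the controls and 45.5, 50.4 and 56.8 in the mutators. The groups overlapped, with 5 of 7 mutators above the highest control, mouse 205. The log2 fold change of Insig2 was 0.14 (SE 0.06, adjusted p = 0.233 by edgeR).

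Srebf1, which drives fatty acid synthesis more than cholesterol synthesis, had 75.4, 95.7, 77.5 and 80.2 CPM in the controls and 59.1, 74.3 and 95.5 in the mutators. Insig1, itself a target of the SREBPs, had 98.0, 80.8, 97.0 and 96.9 CPM in the controls and 70.6, 84.0 and 117.2 in the mutators. Both varied more within the groups than between them, with mutator mouse 207 the highest mutator and mouse 249 the lowest in each. The 95% interval of the log2 fold change ran from -0.38 to 0.16 for Srebf1 and from -0.34 to 0.18 for Insig1. With single mice left out, the estimate lay between -0.17 and -0.03 for Srebf1 and between -0.16 and -0.03 for Insig1.

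Of the 6 genes of transport, efflux and turnover, 2 (33.3%) had an unadjusted p under 0.05, against 15.8% of all genes tested. Both were lower in the mutators, where 8.58% of all genes were lower at that threshold. Cyp46a1, the cholesterol hydroxylase of neurons, had 184.7, 226.0, 191.8 and 210.0 CPM in the controls and 161.5, 172.9 and 204.0 in the mutators. In 6 of 7 mutators it lay below the lowest control, while mouse 249 lay among the controls. The log2 fold change was -0.20 (SE 0.06, adjusted p = 0.106 by edgeR). It was -0.23 without mouse 249 and -0.24 without control mouse 205, with edgeR adjusted p of 0.0371 and 0.0491, and -0.14 without mouse 237. The adjusted p ranged up to 0.574 over its 18 alternatives.

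Nr1h2, a liver X receptor, had 43.1, 52.5, 47.2 and 50.01 CPM in the controls and 38.5, 43.4 and 45.7 in the mutators. Mouse 237 was the highest and mouse 248 the lowest of all 11. Its log2 fold change was -0.15 (SE 0.06, adjusted p = 0.204 by edgeR) and -0.11 without mouse 237. Nr1h3, the other liver X receptor, was low in both groups, at 3.38 ± 0.31 CPM in controls (SD, n = 4) and at 3.16 ± 0.58 in mutators (SD, n = 7).

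Abca1, an exporter of cholesterol and a target of the liver X receptors, had 64.7, 75.0, 59.9 and 59.8 CPM in the controls and 53.0, 61.2 and 83.7 in the mutators. Its mutators lay on both sides of the controls, with mouse 207 the highest, and the 95% interval of its log2 fold change ran from -0.30 to 0.32. Abcg1, another exporter, and Stard4, a carrier of sterols between membranes, had log2 fold changes of -0.09 and 0.08, with intervals that hold 0. That of Stard4 was 0.01 without mouse 237 and 0.13 without mouse 246.

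**Figure D2:**
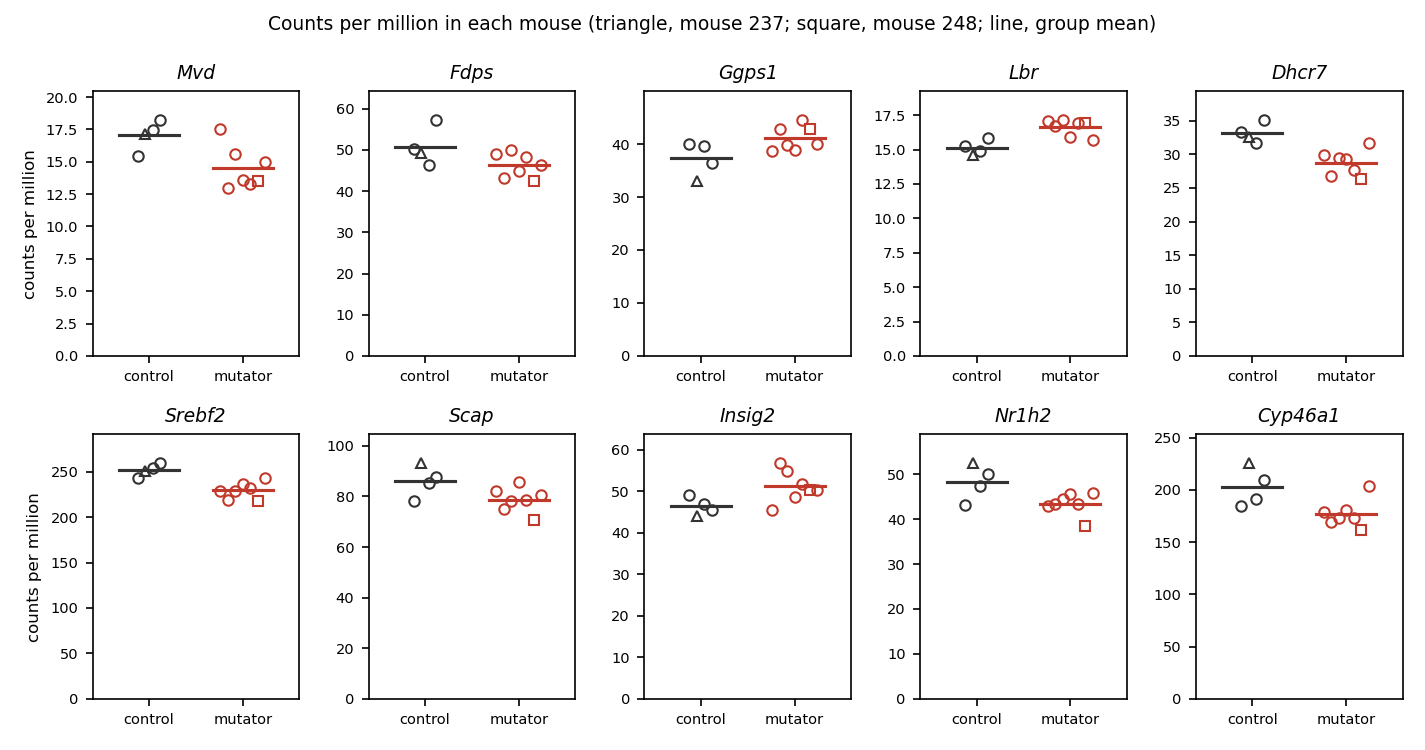
CPM (vertical axis, from 0) in each of 4 control and 7 mutator mice for the 10 members with an unadjusted p under 0.05. Horizontal lines are group means, the triangle is mouse 237 and the square mouse 248. The groups overlap in each panel.

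Compared per length, in CPM per kilobase of exon, the levels in controls ran from 1.34 ± 0.12 for Nr1h3 to 95.8 ± 8.78 for Cyp46a1 (SD, n = 4). Srebf2 came next to Cyp46a1 at 50.5 ± 1.39 (SD, n = 4) and Fdps after it at 41.2 ± 3.80 (SD, n = 4). Insig1 at 35.2 ± 3.13 and Fdft1 at 32.5 ± 2.23 did not differ beyond their spread (SD, n = 4). In the order of these levels, the enzymes of the squalene steps were spread from Fdft1 to Lbr at 4.26 ± 0.15 (SD, n = 4). The length counts all annotated exon bases, merged over transcripts, so this order depends in part on the annotation. Lss, at 55.2 ± 1.36 CPM in controls, was divided by 10787 bases and came to 5.12 ± 0.13 per kilobase (SD, n = 4).

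**Figure D3:**
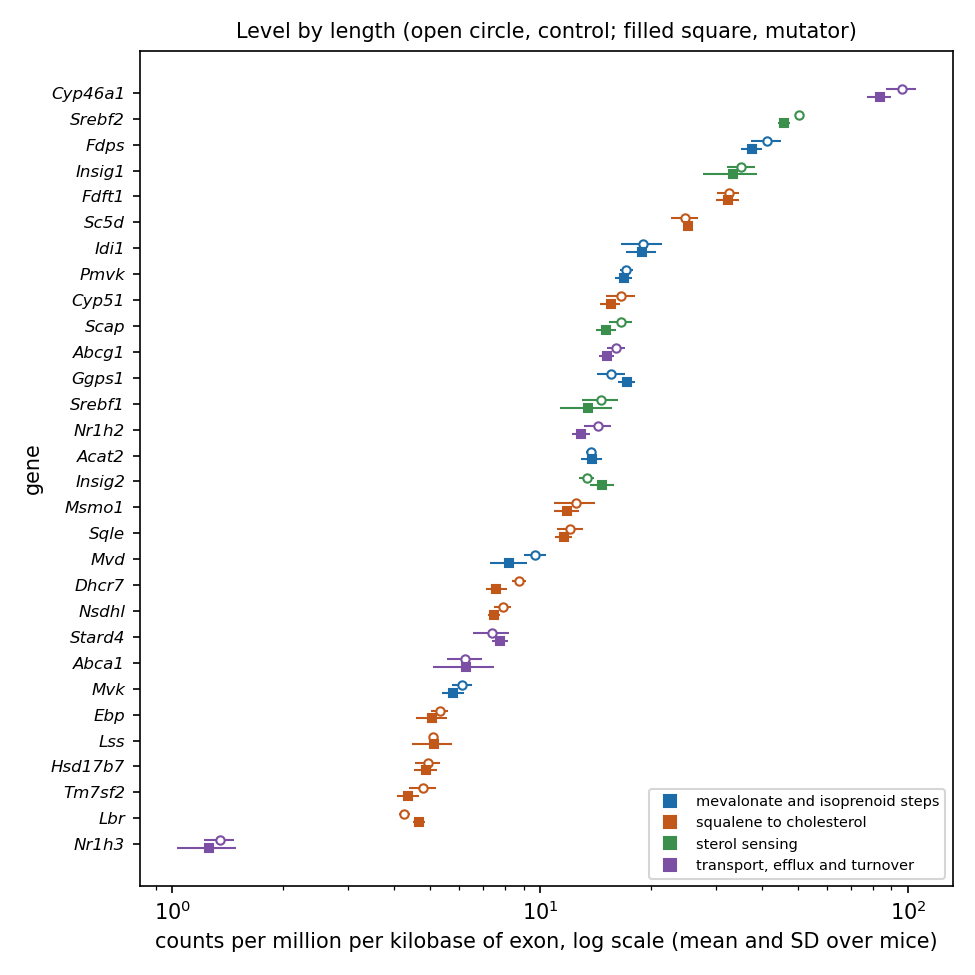
Level of each member in CPM per kilobase of exon (horizontal log axis) by gene (vertical axis), coloured by role. Open circles are the mean of 4 controls and filled squares the mean of 7 mutators, with bars of 1 SD. Cyp46a1 is the highest and Nr1h3 the lowest in both groups.

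Other genes that act beside these were described in 6 further lists. For comparison, edgeR called 1.24% of all genes tested. At an unadjusted p under 0.05 there were 15.8% of all genes, 7.18% higher and 8.58% lower. Of 8 genes of SREBP cleavage and sterol-regulated degradation, 0 were called by edgeR and 2 (25%) had an unadjusted p under 0.05, both higher. Pgrmc1, a membrane protein that binds heme, had 259.1 ± 16.5 CPM in controls (SD, n = 4) and 282.4 ± 7.64 in mutators (SD, n = 7), with groups that did not overlap by a narrow margin (log2 fold change 0.12, adjusted p = 0.17 by edgeR). For Erlin2 the log2 fold change was 0.11 (adjusted p = 0.272 by edgeR).

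Of 14 fatty acid enzymes that the SREBPs control, 0 were called by edgeR and 5 had an unadjusted p under 0.05, all 5 lower. That was 35.7% of the list, against 15.8% of all genes tested, and 8.58% of all genes were lower at that threshold. Scd1, a desaturase, had a log2 fold change of -0.21 (adjusted p of 0.079 by edgeR and 0.0445 by DESeq2). Fasn, fatty acid synthase, had -0.18 (adjusted p of 0.124 by edgeR and 0.0886 by DESeq2). The median over the list was -0.07. Of 7 partners and targets of the liver X receptors, 1 was called by edgeR, where 1.24% of all genes were. At an unadjusted p under 0.05 there were 3 (42.9%), all 3 lower. Below 0 lay 6 of 7 (85.7%), against 49.6% of all genes. DESeq2 called 1, also lower. Pltp, which transfers phospholipids between lipoproteins, fell from 48.5 ± 3.29 CPM in controls (SD, n = 4) to 36.6 ± 3.74 in mutators (SD, n = 7), which on the log2 scale was a change of -0.41 (SE 0.07, adjusted p = 0.00495 by edgeR). Pltp was lower in 7 of 7 mutators than in any control. Without mice 237 and 248 its log2 fold change was -0.33 and was no longer called (adjusted p = 0.0519 by edgeR), but it was called in the other 17 of 18 alternatives.

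Of 15 genes of sterol uptake, transport and storage, 0 were called by edgeR. At an unadjusted p under 0.05 there were 3 (20%), 2 higher and 1 lower, against 15.8% of all genes tested. Apod, an apolipoprotein of glia, had a log2 fold change of 0.29 (adjusted p of 0.0593 by edgeR and 0.0121 by DESeq2), and Scarb1, a lipoprotein receptor, had -0.19 (adjusted p = 0.175 by edgeR). Of 10 genes of the isoprenoid branch, 0 were called by edgeR and 2 (20%) had an unadjusted p under 0.05, 1 higher and 1 lower. They were Pggt1b and Rabggta, subunits of prenyl transferases, with log2 fold changes of 0.25 and -0.14 (edgeR adjusted p of 0.124 and 0.183). Of 5 oxysterol enzymes, 0 had an unadjusted p under 0.05. Hsd3b7 had a log2 fold change of -0.15 (adjusted p = 0.331 by edgeR). Ch25h had 4.22 CPM in control mouse 246 and between 0.262 and 0.415 in the other controls, so that its log2 fold change was -0.42 with all mice and 1.37 without that mouse (adjusted p = 0.0487 by edgeR).

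Markers of the cell types of the cerebrum were followed as whole lists, with counts of log2 fold changes above or below 0. Their part in the values above was not tested. Of all genes tested, edgeR called 1.24%, 15.8% had an unadjusted p under 0.05 and 49.6% lay below 0. DESeq2 called 3.54% of its 17377 genes. Of 11 oligodendrocyte markers, 1 was called by edgeR and 5 (45.5%) had an unadjusted p under 0.05, all 5 lower. DESeq2 called 2, Opalin and Mag, both lower, and 7 of 11 (63.6%) lay below 0. Opalin, a myelin protein, fell from 22.9 ± 0.56 CPM (SD, n = 4) to 13.03 ± 3.25 (SD, n = 7), which on the log2 scale was a change of -0.81 (SE 0.16, adjusted p = 0.0385 by edgeR), and was lower in 7 of 7 mutators than in any control. Opalin was called in 7 of 18 alternatives, with an adjusted p between 0.000224 without mouse 217 and 0.253 without mice 237 and 248. Its log2 fold change was -0.81 without mice 237 and 248, and between -0.92 and -0.74 with single mice left out. Mag, a protein of the myelin sheath named after its values were seen, had 210.7 ± 16.7 CPM in controls (SD, n = 4) and 169.6 ± 19.7 in mutators (SD, n = 7), with groups that overlapped. Its log2 fold change was -0.31 (SE 0.08), with an adjusted p of 0.0558 by edgeR and 0.00749 by DESeq2, and it was called in 3 of 18 alternatives (DESeq2, without mutator mouse 217 and without control mouse 205), over which the adjusted p ranged from 0.00192 without mouse 217 to 0.394. The list's summed CPM, of which Mbp made up 52.0%, lay between 5345 and 6066 in the controls and between 5222 and 7253 in the mutators, with mouse 217 the highest.

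Of 9 astrocyte markers, 0 were called by edgeR. At an unadjusted p under 0.05 there were 3 (33.3%), 2 higher and 1 lower, against 15.8% of all genes tested. Of the 9, 5 (55.6%) lay below 0, against 49.6% of all genes. Gjb6 had a log2 fold change of 0.26 and Slc1a2 of -0.13 (DESeq2 adjusted p of 0.0328 and 0.0417). The list's sum, of which Slc1a2 made up 66.2%, lay between 4150 and 4509 CPM in controls and between 3940 and 4269 in mutators. Of the 7 neuron markers measured, 0 were called by edgeR and 2 (28.6%) had an unadjusted p under 0.05, 1 higher and 1 lower. Below 0 lay 5 of 7 (71.4%). Slc17a7 and Gad2 had log2 fold changes of -0.21 and 0.14 (edgeR adjusted p of 0.0995 and 0.23), and Gad2 was at 0.09 without mouse 237 and at 0.09 without mouse 246. Their sum, with Snap25 at 36.1% of it, lay between 5958 and 6329 CPM in controls and between 5760 and 6207 in mutators.

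Of 8 microglia markers, 0 were called by edgeR. At an unadjusted p under 0.05 there were 3 (37.5%), all 3 lower, against 15.8% of all genes tested. Below 0 lay 8 of 8, against 49.6% of all genes. The log2 fold change was -0.20 for Cx3cr1 and -0.17 for Csf1r, which was at -0.10 without mouse 237. The microglia sum lay between 283.3 and 355.9 CPM in controls and between 270.1 and 327.8 in mutators, with Csf1r at 28.7% of it. Of 7 endothelial markers, 0 were called by edgeR and 3 (42.9%) had an unadjusted p under 0.05, 2 higher and 1 lower. Below 0 lay 3 of 7 (42.9%). The log2 fold change was 0.36 for Flt1 (DESeq2 adjusted p = 0.00404) and 0.20 for Pecam1. The endothelial sum lay between 213.7 and 274.9 CPM in controls and between 217.5 and 277.9 in mutators, and Flt1 made up 34.0% of it.

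Of 5 choroid plexus markers, 0 were called by edgeR. At an unadjusted p under 0.05 there were 2 (40%), 1 higher and 1 lower, against 15.8% of all genes tested. Below 0 lay 2 of 5 (40%), against 49.6% of all genes. Clic6 had a log2 fold change of 0.36 (DESeq2 adjusted p = 0.0221) and Folr1 of -0.30, or -0.17 without mouse 237. The sum of 517.4 to 695.8 CPM in controls and 529.3 to 757.9 in mutators was 92.0% Ttr. Of 5 red blood cell markers, 0 had an unadjusted p under 0.05, while 5 of 5 lay above 0 with a median of 0.64, and the log2 fold changes of Alas2 and Hbb-b2 were 1.02 and 0.85, with Hbb-b2 at 1.31 without mouse 246. The sum, 53.6% Hbb-b1, lay between 57.5 and 198.3 CPM in controls and between 89.7 and 256.9 in mutators. Each of the 7 sums overlapped between the groups. DESeq2 called 0 genes among the neuron, microglia and red blood cell markers, the oxysterol enzymes, the isoprenoid branch and the genes of SREBP cleavage.

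Counts per exon bin were given for 10 mice, the 7 mutators and the 3 WT/WT controls. A bin is a stretch of exon bounded by the nearest annotated exon edges. Reads in no bin made up 20.6% to 20.8% in the controls and 20.8% to 23.4% in the mutators, with mouse 248 the highest. Each mutator lay above each control, the nearest by a narrow margin. The part of these reads in the bin values, and in the gene values above, was not tested. With diffSpliceDGE of edgeR, the usage of each of 544 bins was compared with that of the remaining bins of its group, a group being a gene or a set of overlapping genes merged for counting. These bins belong to the groups that hold the 30 members, and 2 members, Tm7sf2 and Nr1h3, lie in merged groups whose bins of neighbouring genes are counted too. None of them was called, where 0.0237% of all 206930 bins were. At an unadjusted p under 0.05 there were 9, 4 higher and 5 lower, where 1.9% of all bins were, and limma gave 0 called and 10 at the unadjusted threshold. With merged groups left out there were 459 bins, of which edgeR called 0 and gave 8 at the unadjusted threshold. With single mice left out, edgeR gave between 4 (without control mouse 239 or mutator mouse 217) and 15 (without mutator mouse 207). The share of all bins at the unadjusted threshold is not given for these alternatives. Bins called over all genes moved too. They numbered 49 with all mice, 5 without mouse 239, 43 without mouse 217 and 100 without mouse 207.

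The 3 member bins with the smallest p all had an edgeR adjusted p of 1. Bin 2 of Dhcr7, on chromosome 7 from 151009072 to 151009445, had 0.142, 0.294 and 0.125 CPM in control mice 205, 239 and 246 and 0.215, 0.304 and 0.351 in the lowest, median and highest mutator. Bin 27 of the same gene, from 151031346 to 151031474, had 3.25, 3.14 and 3.09 CPM in the controls and 2.19, 2.31 and 2.80 in the mutators. Bin 22 of Insig2, on chromosome 1 from 123216483 to 123216549, had 2.22, 2.57 and 2.05 CPM in the controls and 1.93, 2.07 and 2.45 in the mutators. Only bin 27 of Dhcr7 kept the groups apart, with each mutator below each control, where the whole gene was lower too. These 3 bins were picked for their small p, and the share of all bins that kept the groups apart is not given. Relative to the rest of the gene, the log2 differences were 0.77, -0.25 and -0.27.

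Srebf1 has alternative first exons, which the bins tell apart. Bin 46, on chromosome 11 from 60023895 to 60023967, had 0.738 ± 0.025 CPM in controls (SD, n = 3) and 0.728 ± 0.179 in mutators (SD, n = 7). Bin 47, upstream of it from 60033955 to 60034106, had 0.409 ± 0.019 (SD, n = 3) and 0.467 ± 0.102 (SD, n = 7). Bin 48, farthest upstream, was too low to be tested. Neither bin 46 nor bin 47 was called between the groups by edgeR (adjusted p of 1 for both).

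Promoter windows of 300 bases around the start site were read from RefSeq (GRCm38.p6) for 26 of 31 members, 35 windows in all. Sqle, Fdft1, Fdps, Abcg1 and Stard4 had no entry. Both strands were searched for TCACNCCAC, a core of the sterol regulatory element that SREBPs bind, and for CCAAT, the box of NF-Y, a factor that works beside SREBPs at many sterol genes. Other forms of the element were not searched for, so a window without these letters may still hold one. TCACNCCAC was found in 1 of 26 members, 3.85%, against 1.44% of all genes with a window. It lies in the window of Hmgcs1, on chromosome 13 from 119690204 to 119690233, shown with the match in capitals because it is the only member with these letters.
Hmgcs1: cgtcaccgtcTCACCCCACttcccaggtcc

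CCAAT was found in 21 of 26 members, 80.8%, against 41.1% of all genes with a window. No test was made of either share, and a match is not shown to be bound. Sequences are shown for the members with an unadjusted p under 0.05 that have the box before the start site. Only matches whose printed stretch lies wholly before the start site were considered, so a nearer box may exist. The nearest of these matches is in capitals on the gene's strand, where ATTGG is the box on the opposite strand. The sequences lie, in order, at chr8:122443432-122443461, chr13:14063526-14063555, chr1:181842412-181842441, chr7:143830153-143830182, chr15:82147122-82147151, chr1:121332601-121332630 and chr12:108334151-108334180 (GRCm38.p6).
Mvd: ccggccagcgggCCAATcatatggcagcgc
Ggps1: cagtcttctaggCCAATcggtaaactgacg
Lbr: aaggtcgagggaCCAATggggagctcaggg
Dhcr7: aatccacttccgATTGGtcgtctgtgacct
Srebf2: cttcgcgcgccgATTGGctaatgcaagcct
Insig2: tcaccttccacaCCAATctatattaaaatg
Cyp46a1: agccaggttgtgATTGGtgaatacttatcg
The box begins 27 bases before the start site in Mvd, 28 in Lbr, 29 in Insig2, 49 in Dhcr7, 55 in Ggps1, 135 in Srebf2 and 153 in Cyp46a1. Dhcr7 and Insig2 have 3 windows each, of which only 1 holds the box, and the distance is to the start site of that window.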

How the data were processed

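The authors aligned paired end reads to mm9 with TopHat2 2.0.6 and Bowtie2 2.0.2.0 and counted them on Ensembl genes with HTSeq 0.5.3p9, per the submitters' processing notes and the methods. They deposited counts per gene and per exon bin, not normalized, and a table of read totals. The libraries do not keep the strand. The deposited DESeq and DEXSeq tables hold fold changes and p-values and were not used.

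Here the quasi-likelihood test of edgeR 4.0.16 (R 4.3.3) was run over the whole gene table, 7 mutators against 4 controls, after filterByExpr and TMM scaling and with robust dispersion estimates. Bins were tested by diffSpliceDGE, 7 against 3. P-values were adjusted over all genes or bins. DESeq2 1.42.0, limma 3.58.1, other scalings and filters, and each mouse left out were alternatives. Reads in no bin, 20.6% to 20.8% in controls and 20.8% to 23.4% in mutators, were left out. Scripts were tested on simulated data with planted changes larger than those of the members. How often changes of the members' size would be called was not tested. Positions and bin coordinates come from GENCODE vM1 on NCBIM37, a later release than the one counted, with equal numbers of bins.

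Members and lists were chosen with earlier results of these data known. All members are named, with values in each control and the lowest, median and highest mutator for those with an unadjusted p under 0.05 and for Hmgcs1, Sqle, Cyp51, Insig1, Srebf1, Srebf2, Abca1 and Cyp46a1. Of other lists, genes called by edgeR are named, otherwise the 2 with the smallest p, and of bins the 3 with the smallest p. Mag, called by DESeq2 alone, and the Srebf1 first exons were chosen after their values were seen. Rbfox3, a planned neuron marker, is not analysed here.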

Additional observations from a re-analysis of the deposited data

Results flagged for a closer look

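In 9 of 132 groups of values examined, 1 mouse lay far from the rest of its group, by the gap to its nearest neighbour as a share of the group's range. Chance gives about 1 in 20 such groups. Among the members, Insig1 was low in control mouse 237 at 80.8 CPM, against 96.9 to 98.0 in the other controls (share 0.932). Nsdhl was high in mutator mouse 249 at 23.1 CPM, against 20.5 to 21.5 (share 0.624), and Nr1h2 was low in mutator mouse 248 at 38.5 CPM, against 42.8 to 45.7 (share 0.592).

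Of the other genes named, Ch25h was high in control mouse 246 at 4.22 CPM, against 0.262 to 0.415 (share 0.961), and Opalin was high in control mouse 237 at 23.7 CPM, against 22.5 to 22.7 (share 0.872). Scarb1 was high in mutator mouse 249 at 31.4 CPM (share 0.653), Pgrmc1 was high in mutator mouse 217 at 297.2 CPM (share 0.571), and Clic6 was low in mutator mouse 207 at 14.5 CPM (share 0.573). The summed oligodendrocyte markers were high in mutator mouse 217 at 7253 CPM, against 5222 to 6008 (share 0.613).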

How the results depend on the processing

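Of 540 log2 fold changes of members under the alternatives, 504 kept their direction and their side of the threshold, 30 turned their direction and 6 passed the threshold where the reported value did not. None of those that turned came from a member with an unadjusted p under 0.05. Those members were picked for their small p in the same data, so a turn in them was unlikely from the start. The count of members called was 2 with DESeq2 and ranged from 0 to 2 with single mice left out (1 without control mouse 205, 1 without mutator mouse 207 and 2 without mutator mouse 249). The count at an unadjusted p under 0.05 ranged from 6 (without control mouse 246 or mutator mouse 211) to 11, and was 6 without mice 237 and 248 together, an alternative added after seeing the data. With single mice left out, member bins at an unadjusted p under 0.05 numbered 4 to 15 (9 with all mice) and bins called over all genes 5 to 186 (49 with all mice), while edgeR called 0 member bins (adjusted p of 1). The cause of these changes was not tested.

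With upper-quartile factors the log2 fold change of Fdft1 was 0.00151. Without mice 237 and 248 it was 0.0164 for Pmvk, -0.0297 for Sc5d, 0.00967 for Srebf1 and -0.00134 for Stard4. With single mice left out it ranged from -0.0148 to 0.0265 for Acat2, from -0.0936 to 0.039 for Idi1, from -0.0321 to 0.042 for Fdft1, from -0.0591 to 0.0306 for Lss, from -0.0666 to 0.0243 for Hsd17b7, from -0.0242 to 0.0736 for Sc5d, from -0.0594 to 0.0876 for Abca1 and from -0.847 to 1.368 for Ch25h. Without changing direction, it ranged from -0.28 to -0.20 for Mvd, from -0.23 to -0.18 for Dhcr7 and from -0.24 to -0.14 for Cyp46a1.

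The smallest library, control mouse 246, held 28249345 gene counts, so that at a given CPM counting error was largest there. The median standard error of the members' log2 fold changes was 0.06. The multiplexed pool of each mouse is not given in the sources used here.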
